A study of Mus musculus with 54 samples.

Results

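The genes of the suppressor of cytokine signalling (SOCS) family, Socs1 to Socs7 and Cish, were followed in mouse peritoneal macrophages. The members were taken by symbol, and 8 of 8 were found among the 39179 gene identifiers of the count tables. C57BL/6 mice aged 8 to 20 weeks had received thioglycolate, which draws inflammatory macrophages into the peritoneum, and adherent cells of the lavage taken 4 days later were cultured. In the polarization experiment, cells of 3 mice were kept for 24 h without cytokine (M0), with IFN-γ at 50 ng/ml together with LPS at 100 ng/ml (M1-like) or with IL-4 at 10 ng/ml (M2-like). In the reprogramming experiment, 12 groups of 3 replicates comprised untransfected M0, M1-like and M2-like cells, the same 3 states after mock transfection, and M2-like macrophages that received a negative siRNA pool, an siRNA pool against E2f1, Myc, Pparg or Stat6, or the 4 targeting pools together (combined knockdown, called iM1). The study sequenced transfected cells 48 h after transfection, which followed 24 h of polarization and was followed by culture without IL-4. Sequencing of cells without transfection is dated to 24 h after polarization, but whether this covers the untransfected groups of the reprogramming experiment is not stated. RNA of M0, M1-like, M2-like and iM1 cells is described as 3 biological replicates, but whether those of the reprogramming experiment came from separate mice is not stated, so p-values measure the spread between these samples.

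After summing the 2 technical replicates of each mouse, the 9 samples of the polarization experiment held 39577911 to 59443987 counted reads, and the 36 libraries of the reprogramming experiment held 13421854 to 19704195. Markers of macrophages were present, 7 of 7 in each of the groups, with summed levels between 6211 and 18320 CPM (reads of a gene scaled to the size of the library). Markers of mesothelial cells and fibroblasts summed to 4.46 to 30.0 CPM at 24 h and to 17.1 to 391 CPM in the reprogramming experiment, where they were lowest in the M1-like groups. In the single knockdowns the targets E2f1, Myc, Pparg and Stat6 were left at 25.2% ± 4.05, 38.0% ± 8.01, 21.9% ± 2.58 and 27.3% ± 5.79 (SD, n = 3) of their mean in the negative siRNA pool. The combined knockdown left 60.4% ± 2.01 of E2f1, 39.6% ± 3.2 of Myc, 28.3% ± 2.25 of Pparg and 54.0% ± 4.82 of Stat6. Replicate 3 of the M0 mock group stood apart from the other replicates of its group in 54 of 10223 genes, the highest number among all libraries, and the Socs3 differences that involve its group are given with and without it. The spread estimated for Socs3 from all groups together includes this library, so the Socs3 differences between siRNA groups are also given from fits of only the compared groups.

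SOCS proteins are feedback inhibitors of cytokine receptors. Janus kinases (JAK) on the receptors phosphorylate STAT transcription factors, STAT dimers switch on SOCS genes, and the SOCS proteins bind phosphotyrosines of receptors or kinases through an SH2 domain while their SOCS box recruits a ubiquitin ligase with elongins and Cul5. Socs1 and Socs3 can in addition block the kinase itself, and in macrophages Socs1 restrains the response to interferons and Socs3 the response to IL-6.

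Windows around the transcription start were searched for letters that STAT and interferon regulatory factors are known to recognise. Promoter windows of 300 bases (250 before and 50 from the start site, RefSeq, GRCm38.p6) were held for 4 of the 8 members, Socs1, Socs3, Socs4 and Cish. The stretches of Cish, Socs1 and Socs3 are shown because these 3 genes had the largest responses to polarization. They are printed 5′ to 3′ (Cish with 30 bases, Socs1 and Socs3 with the 250 before the start) with matches in capitals, at chr9:107296657-107296686 (+) for Cish, chr16:10785537-10785786 (-) for Socs1 and chr11:117969367-117969616 (-) for Socs3:
Cish: ttTTCCTGGAAagTTCTTGGAAatctgtca
Socs1: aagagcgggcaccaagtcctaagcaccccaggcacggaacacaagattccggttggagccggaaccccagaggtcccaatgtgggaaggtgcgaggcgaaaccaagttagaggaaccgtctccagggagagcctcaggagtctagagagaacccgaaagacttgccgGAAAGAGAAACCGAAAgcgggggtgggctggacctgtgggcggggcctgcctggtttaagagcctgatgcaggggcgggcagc
Socs3: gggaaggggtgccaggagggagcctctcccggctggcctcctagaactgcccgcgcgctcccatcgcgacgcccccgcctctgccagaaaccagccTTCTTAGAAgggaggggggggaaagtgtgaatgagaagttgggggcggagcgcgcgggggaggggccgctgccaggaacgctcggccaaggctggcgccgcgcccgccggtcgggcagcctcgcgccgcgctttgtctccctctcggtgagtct
Capitals in Cish and Socs3 mark the STAT dimer core TTCNNNGAA, which occurred 2 times in Cish, from 0 to 8 and from 11 to 19 bases after the start, and 1 time in Socs3, at -154 to -146. Searched on both strands, this core was found in 8.3% of 32851 windows of the same length, and in 0.457% of them at least 2 times. Capitals in Socs1 mark 2 overlapping copies of the interferon response core, GAAA and GAAA with any 2 bases between them, at -83 to -74 and -77 to -68, which was found in 3.44% of the windows. The wider STAT core, TTC and GAA with any 4 bases between them, and the E-box CACGTG, present in 6.95% and 7.15% of the windows, had no match in the 4 windows of the family, and the window of Socs4 held none of the 4 motifs. A match is a description of the letters only. All positions count from the RefSeq starts. In the GENCODE M21 models Cish and Socs3 begin further upstream, so their stretches lie within the gene spans given below.

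LPS with IFN-γ raised Socs1, Socs3 and Cish by far more than the other members after 24 h. Socs1 measured 0.560, 0.653 and 0.515 CPM in the M0 samples of the 3 mice and 234, 251 and 294 CPM in their M1-like samples. Socs3 went from 5.84, 5.0 and 4.15 CPM to 404, 404 and 437 CPM, and Cish from 0.160, 0.131 and 0.110 CPM to 20.1, 17.1 and 15.8 CPM. No sample of these groups overlapped, and the log2 fold changes were 8.81 ± 0.20 (SE, n = 3) for Socs1, 6.38 ± 0.12 for Socs3 and 7.02 ± 0.17 for Cish, with adjusted p of 2.71e-12, 5.49e-13 and 3.58e-12 (edgeR quasi-likelihood test, two-sided, Benjamini-Hochberg over 16110 genes). The Cish level in M0 rested on 6 to 8 reads per sample, so that it passed the filter on low counts, through the polarized groups. The filter was passed by 8 of 8 members. Here and below a gene is called at an adjusted p under 0.05, and “rose” or “fell” is used of calls.

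The members that are abundant in resting macrophages moved less and in both directions under LPS with IFN-γ. Socs6, an adaptor that has been tied to receptor tyrosine kinases, measured 54.9, 58.9 and 56.8 CPM in M0 and 18.9, 19.8 and 19.7 CPM in M1-like samples, a fall by 1.55 ± 0.09 on the log2 scale (adjusted p = 1.05e-08). Socs5, which has been tied to the EGF receptor, fell by 0.96 ± 0.07, from 19.6, 20.5 and 19.5 CPM to 9.84, 10.8 and 10.03 CPM (adjusted p = 5.73e-08). In contrast, Socs7 rose by 0.67 ± 0.06 (29.5, 27.3 and 28.6 against 48.4, 44.5 and 43.3 CPM, adjusted p = 9.69e-07) and Socs4 by 0.29 ± 0.09 (43.4, 47.5 and 49.7 against 59.6, 59.6 and 53.2 CPM, adjusted p = 0.0104). Socs2, a regulator of growth hormone signalling, measured 1.16, 0.541 and 0.533 CPM in M0 and 0.919, 1.23 and 1.31 CPM in M1-like samples, with overlapping groups and a log2 difference of 0.65 ± 0.32 (adjusted p = 0.0827). With the mouse as a block the adjusted p of Socs2 was 0.0452, and without mouse 1 of M0, the sample at 1.16 CPM, the difference was 1.13 (adjusted p = 0.00391). Thus 7 of 8 members were called, 5 higher and 2 lower, where 72.9% of all genes tested were called (35.4% higher and 37.5% lower), so the count itself does not set the family apart. In M1-like samples the mesothelial and fibroblast markers summed to 4.46 to 6.85 CPM against 17.5 to 30.0 CPM in M0. Eosinophil markers summed to 0.208 to 0.792 against 15.5 to 16.8 CPM. This was nearly all Siglecf, with Epx at most 0.0184 CPM and Prg2 at 0 at 24 h. Macrophage markers summed to 10281 to 11296 against 16107 to 17376 CPM, with Lyz2 the largest. Of these, Adgre1, Mertk and Fcgr1 peaked in an M1-like sample, Cd68 and Lyz2 in M0 samples, and Csf1r and Itgam in an M2-like sample. Dendritic cell markers summed to 29.5 to 40.4 against 2.96 to 5.90 CPM, with Ccr7 up to 36.6 CPM. The part of these markers in the falls was not tested. In such bulk samples fewer cells of a type and less RNA per cell cannot be told apart.

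**Figure D1:**
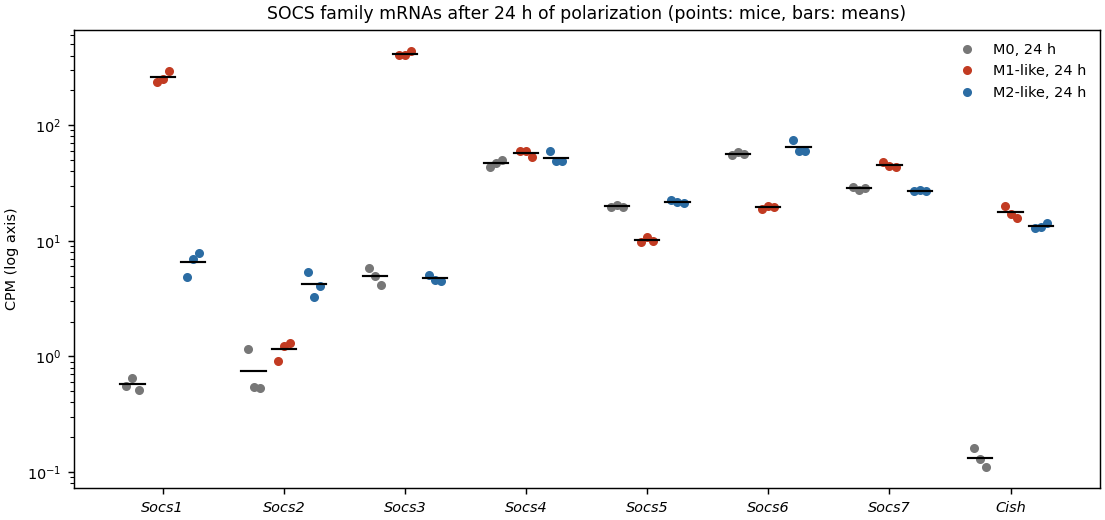
CPM of the 8 family members (log axis) in M0, M1-like and M2-like macrophages of the polarization experiment, each point a mouse and each bar the mean of 3 mice. Socs1 and Socs3 reach means of 260 and 415 CPM in M1-like cells, and Cish is near 0.134 CPM in M0 and at 17.7 and 13.5 CPM in the 2 polarized states.

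IL-4 raised Cish, Socs1 and Socs2 and left the other members without a call. Cish measured 12.9, 13.2 and 14.3 CPM in M2-like samples, none of which overlapped with M0, and its log2 fold change of 6.63 ± 0.17 (adjusted p = 5.9e-10) stood beside 7.02 in M1-like samples, which share the M0 samples. Socs1 reached 4.84, 6.93 and 7.85 CPM, a rise of 3.51 ± 0.21 (adjusted p = 6.29e-07). Socs2 reached 5.33, 3.27 and 4.04 CPM, a rise of 2.5 ± 0.28 (adjusted p = 6.59e-05) with no overlap to M0 or M1-like samples. Socs3 measured 5.09, 4.59 and 4.48 CPM in M2-like samples, within the range of M0, and its log2 difference of -0.08 had a 95% interval from -0.33 to 0.16. The intervals of Socs4, Socs5, Socs6 and Socs7 against M0 reached from -0.22 to 0.37 on the log2 scale. The 3 members called were all higher, where 27.9% of all genes were called, 13.5% higher and 14.4% lower.

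Directly compared at 24 h, the M1-like and M2-like states differed in 7 of 8 members, where 72.6% of all genes were called (34.6% higher and 38.1% lower). Socs1 was higher in M1-like cells by 5.30 ± 0.15 and Socs3 by 6.46 ± 0.12 on the log2 scale. Cish, although far above M0 in both states, differed between them by only 0.39 ± 0.10 (adjusted p = 0.00293), with 20.1, 17.1 and 15.8 against 12.9, 13.2 and 14.3 CPM. Socs2 was lower in M1-like cells by 1.85 ± 0.27, Socs5 by 1.09 ± 0.07 and Socs6 by 1.73 ± 0.09, whereas Socs7 was higher by 0.75 ± 0.06. Socs4 was not called (0.14 ± 0.09, adjusted p = 0.186), and without the M2-like sample of mouse 1 the difference was 0.24 (adjusted p = 0.00697).

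Per kb of exon, which allows levels of different genes to be compared, the make-up of the family turned over. In M0 at 24 h the 8 genes summed to 20.9 ± 0.229 CPM per kb (SD, n = 3), of which Socs4 held 32.7% ± 1.97, Socs6 24.01%, Socs7 18.8%, Socs5 14.9%, Socs3 8.29% and Socs1 0.949%. In M1-like cells the sum was 254 ± 16.0 CPM per kb, and Socs3 and Socs1 held 56.6% and 35.2% of it. In M2-like cells the sum was 26.8 ± 1.43 CPM per kb, with Socs4 first at 28.3%, Socs1 at 8.46% and Cish at 7.83%.

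The rest of the pathway was read from a list of JAK-STAT genes and a list of other SOCS box genes, both chosen with earlier results of these data known. Among the cytokines of the list, 11 of 13 tested genes were higher in M1-like cells at 24 h and 2 were lower, and Il6, the ligand of the receptor that Socs3 restrains, measured 30.9 ± 3.5 CPM against 0.0133 ± 0.0231 CPM in M0. Of 29 receptors 18 rose and 6 fell, among them Il12rb1, a chain of the IL-12 receptor, with 69.5 ± 6.94 CPM against 0.0580 ± 0.0364 CPM, and Il15ra, which presents IL-15, with a rise of 6.04 ± 0.10 on the log2 scale. All 4 JAK kinases rose, Jak2 by 3.24 ± 0.09 and Jak3 by 2.25 ± 0.13. Of 7 STAT factors 4 rose and 2 fell, with Stat2 at 4.06 ± 0.07. Other inhibitors rose in 5 and fell in 2 of 13 cases, with Usp18, which blocks the type I interferon receptor, at 5.72 ± 0.13 and the phosphatase gene Ptpn2 at 2.09 ± 0.09. The partners of the SOCS box ligase rose in 5 of 7 cases, by 1.01 ± 0.06 for Ube2f and 0.88 ± 0.07 for Ube2m, which code for enzymes that activate cullins. Of 19 STAT targets 12 rose and 3 fell, and the chemokine genes Cxcl9 and Cxcl10 reached 2487 ± 225 and 1286 ± 129 CPM. Other genes with a SOCS box rose in 9 and fell in 7 of 19 cases, with Spsb1 at 3.18 ± 0.21 and Neurl2 at -1.93 ± 0.16. Beside these counts, 72.9% of all genes tested were called, 35.4% higher and 37.5% lower. The median over all genes tested was -0.04, against 0.66 for the 8 members and 3.29 for the cytokines.

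In M2-like cells at 24 h the STAT targets held the most calls among the roles, where 27.9% of all genes were called (13.5% higher and 14.4% lower). Of the 19 targets 13 rose and 3 fell, with the IL-4 markers Chil3 and Arg1 at 8.75 ± 0.27 and 6.42 ± 0.46 on the log2 scale. Cytokine genes were higher in 3 and lower in 3 of 13 cases. Il6 was called higher, at 0.172 ± 0.124 CPM against 0.0133 ± 0.0231 CPM. At such levels it passed the filter on low counts through the M1-like samples, which held 30.9 ± 3.5 CPM. Igf1, a growth factor gene, rose by 0.93 ± 0.21. Receptor genes rose in 4 and fell in 5 of 29 cases, with Il6st, the shared chain of IL-6 family receptors, at 1.35 ± 0.06 and Il21r at 0.92 ± 0.18. Of the 4 JAK kinases Jak2 rose by 0.74 ± 0.09 and 2 fell, Jak3 with -0.54 ± 0.14, and Stat3 was the single STAT factor called, at -0.33 ± 0.07. Among 13 other inhibitors 2 rose and 3 fell, such as the ubiquitin ligase gene Cblb at 0.67 ± 0.06 and the phosphatase gene Ptpn6 at -0.53 ± 0.08. Cul5, the scaffold of the SOCS box ligase, rose by 0.32 ± 0.11, and of 19 other SOCS box genes 1 rose, Asb4 at 0.83 ± 0.17, and 3 fell, Rab40c at -0.60 ± 0.08 among them.

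In the untransfected groups of the reprogramming experiment the M1-like rise of Socs1, Socs3 and Cish was again present. It was smaller than at 24 h for Socs1 and Socs3, while the difference between the experiments was not called for Cish. Socs1 measured 0.659, 0.931 and 1.23 CPM in M0 and 26.5, 54.7 and 53.1 CPM in M1-like replicates (5.55 ± 0.35, adjusted p = 4.47e-15), and replicate 1 was the lowest. Socs3 measured 8.93, 9.93 and 6.48 CPM against 139, 188 and 176 CPM (4.31 ± 0.47, adjusted p = 2.18e-09). Cish was covered by 4 reads over the 3 M0 libraries and by 198 over the M1-like libraries, a ratio of 46.6 with a counting interval from 17.9 to 173 (95%, counting error only), and its fitted difference was 5.42 ± 0.48 (adjusted p = 2.38e-11). None of these groups overlapped. Socs5 and Socs6 fell by 1.05 ± 0.10 and 0.95 ± 0.10, whereas Socs2, Socs4 and Socs7 were not called, at -0.96 ± 0.47, 0.16 ± 0.11 and 0.16 ± 0.09. Socs2 rested on 2 to 8 reads per M1-like library, and without M1-like replicate 1, the highest, its difference was -1.69 (adjusted p = 0.0137). In this comparison 5 of 8 members and 57.7% of all genes tested were called (29% higher and 28.7% lower), and the mesothelial and fibroblast markers stood at 24.2 to 76.4 CPM in M1-like against 108 to 208 CPM in M0. Markers of B cells stood at 0.733 to 1.47 against 9.34 to 32.4 CPM and markers of macrophages at 6642 to 7786 against 16475 to 16833 CPM. Markers of eosinophils stood at 0.611 to 1.70 against 15.7 to 23.9 CPM. Prg2 was at 0 in both groups and Epx at 0 in M0, so the M0 sum was Siglecf alone. The part of these markers in the falls was not tested.

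Against M0, the untransfected M2-like groups had calls for Cish and Socs6 (2 of 8 members, 19.9% of all genes, 10.7% higher and 9.19% lower). Cish had 25 reads over 3 M2-like libraries, a ratio of 6.23 to M0 with a counting interval from 2.15 to 24.6, and measured 0.358, 0.709 and 0.595 CPM. Socs6 rose by 0.41 ± 0.09, with 86.2 to 96.3 CPM against 67.5 to 72.3 CPM (adjusted p = 0.00148). Socs1 did not overlap between the groups either, at 1.65, 1.81 and 2.32 CPM, and its difference of 1.02 ± 0.50 was not called by edgeR (adjusted p = 0.15), but was called by DESeq2 (1.04, adjusted p = 0.0436), without a filter (adjusted p = 0.00561) and with only the compared groups in the fit (adjusted p = 0.0461). Socs2 was at 0.75 ± 0.39 and Socs3 at -0.07 ± 0.54, with a 95% interval from -1.17 to 1.02 for Socs3. Socs5 was at 0.24 ± 0.10 (adjusted p = 0.0741), and without M2-like replicate 3 at 0.31 (adjusted p = 0.0387).

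Set directly against each other, untransfected M1-like and M2-like cells differed in 7 of 8 members, where 61.5% of all genes were called (31.3% higher and 30.2% lower). Socs1 was higher in M1-like cells by 4.53 ± 0.31, Socs3 by 4.38 ± 0.47 and Cish by 2.88 ± 0.35 on the log2 scale. Socs2 was lower by 1.71 ± 0.43, Socs5 by 1.29 ± 0.10 and Socs6 by 1.36 ± 0.10, and Socs7 was not called (0.08 ± 0.09). Without M1-like replicate 1 the difference of Socs2 was -2.44. The call of Socs4 (0.26 ± 0.11, adjusted p = 0.0421) was lost, with values between 0.16 and 0.28, when M1-like replicate 1 or 2 or M2-like replicate 2 or 3 was left out. DESeq2 (adjusted p = 0.0613), RLE scaling (adjusted p = 0.0609) and a fit of only the compared groups (adjusted p = 0.124) did not call it either.

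The pathway lists in this experiment pointed in both directions. Over all genes tested, 57.7% were called in untransfected M1-like cells (29% higher and 28.7% lower) and 19.9% in M2-like cells against M0. In untransfected M1-like cells 7 of 11 cytokines rose and 2 fell, Il27 rising by 4.02 ± 0.37 and Igf1 at -4.0 ± 0.17. Receptors were split into 10 that rose and 11 that fell among 28, with Il12rb1 at 28.6 ± 9.71 CPM against 0.0922 ± 0.0470 CPM and Il15ra at 3.45 ± 0.13 on the log2 scale. Jak2 and Jak1 rose by 1.06 ± 0.07 and 0.50 ± 0.05, Stat2 by 1.66 ± 0.16, and Usp18 by 2.07 ± 0.21, while Sh2b3, an adaptor that restrains JAK2 signalling, changed by -1.24 ± 0.08. STAT targets rose in 10 and fell in 6 of 18 cases, led by Cxcl9 (64.0 ± 13.9 CPM) and Gbp2 at 6.94 ± 0.28. Of the ligase partners Ube2m and Ube2f rose again, by 0.47 ± 0.09 and 0.23 ± 0.10, and 1 of the 7 fell. Spsb1, higher at 24 h, was lower here, at -1.51 ± 0.47, and Neurl2 was at -1.19 ± 0.15. In M2-like cells the called genes included Chil3 at 6.60 ± 0.21, Retnla at 4.78 ± 0.57, Osm at -0.73 ± 0.25, Il15 at 0.49 ± 0.15, Il12rb2 at 0.93 ± 0.24, Csf2rb2 at 0.54 ± 0.06, Stat2 at -0.63 ± 0.17, Usp18 at -1.18 ± 0.28 and Cblb at 0.69 ± 0.09. Elob, which codes for elongin B, was at -0.30 ± 0.09, and the SOCS box genes Spsb4 and Spsb2 were at 0.42 ± 0.10 and -0.38 ± 0.09.

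**Figure D2:**
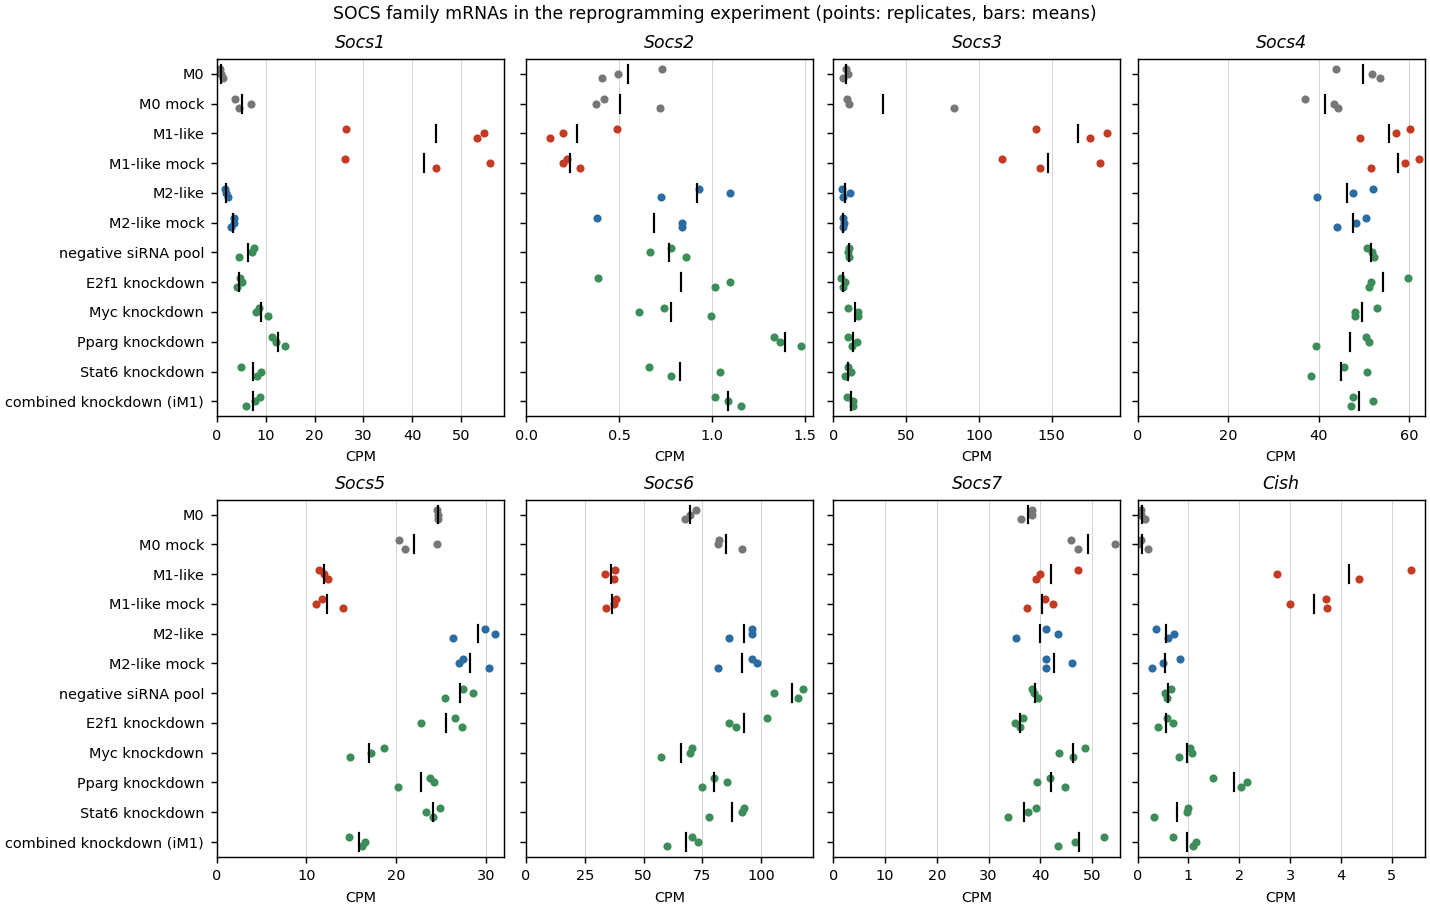
CPM of each member (linear axis from 0) in the 12 groups of the reprogramming experiment, each point a replicate and each bar the mean of 3. The M1-like groups are highest for Socs1, Socs3 and Cish and lowest for Socs5 and Socs6, and 1 M0 mock replicate lies at 83.0 CPM for Socs3 against 9.11 and 10.6 CPM in the other two.

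Mock transfection raised Socs1 and Socs3 in M0 cells, and for Socs3 this rested on 1 library. Socs1 measured 3.65, 7.04 and 4.64 CPM in M0 mock replicates against 0.659 to 1.23 CPM in M0, with no overlap and a rise of 2.45 ± 0.42 (adjusted p = 4.68e-05). Socs3 measured 9.11, 10.6 and 83.0 CPM and overlapped with M0, and its difference of 2.01 ± 0.47 (adjusted p = 0.00217) was 0.23 ± 0.27 (adjusted p = 0.623) without replicate 3. Socs7 rose by 0.39 ± 0.09 (46.0 to 54.5 against 36.2 to 38.4 CPM, adjusted p = 0.00124). Socs6 rose by 0.29 ± 0.09 (81.8 to 91.9 against 67.5 to 72.3 CPM, adjusted p = 0.0237), and its call was lost without M0 replicate 2 (0.29), M0 replicate 3 (0.27) or M0 mock replicate 3 (0.23). Socs4 was at -0.26 ± 0.11 and passed without M0 replicate 1 (-0.34, adjusted p = 0.0466). In M0 cells 4 of 8 members and 20.4% of all genes were called (11.7% higher and 8.66% lower). Mock transfection changed 0 of 8 members in M1-like cells, where 0% of all genes were called, and 0 of 8 in M2-like cells (1.77% of all genes, 1.67% higher), by edgeR and by DESeq2, and 0 members had an unadjusted p under 0.05 in either. Socs1 in M2-like cells nevertheless did not overlap between the groups, with 3.59, 3.44 and 3.0 CPM in mock against 1.65 to 2.32 CPM in untransfected cells (0.79 ± 0.39, adjusted p = 0.56).

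Against their own mock controls, all 8 members were called in M1-like mock cells, where 60.4% of all genes were called (30.3% higher and 30% lower). Socs1 measured 26.3, 55.9 and 44.9 CPM against 3.65 to 7.04 CPM in M0 mock, a rise of 3.03 ± 0.27. Socs3 measured 116 to 184 CPM and rose by 2.11 ± 0.40, or by 3.90 ± 0.25 without M0 mock replicate 3. Cish had 193 reads over 3 libraries against 4 in M0 mock, a ratio of 41.5 with a counting interval from 16.0 to 154, and a fitted rise of 5.25 that was 4.60 without M0 mock replicate 2 and 6.50 without replicate 3. Socs4 rose by 0.47 ± 0.11, and Socs5 and Socs6 fell by 0.85 ± 0.10 and 1.21 ± 0.09. Socs7, which rose in M1-like cells at 24 h, was lower here by 0.29 ± 0.09 (37.4 to 42.5 against 46.0 to 54.5 CPM), a call that was lost without M0 mock replicate 2 (-0.21, adjusted p = 0.051). Socs2 fell by 1.08 ± 0.47 (adjusted p = 0.0451) on 4 to 5 reads per M1-like mock library, and its call was lost without M0 mock replicate 3 (-0.75), M1-like mock replicate 1 (-1.04) or M1-like mock replicate 2 (-0.96). The Socs2 call was also lost with DESeq2 (adjusted p = 0.0724) and without a filter (adjusted p = 0.137).

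M2-like mock cells differed from M0 mock cells in 3 of 8 members, where 3.83% of all genes were called (2.19% higher and 1.64% lower), and each of the 3 calls was lost when some single library was left out. Cish had 24 reads over 3 libraries against 4, a ratio of 6.54 with a counting interval from 2.25 to 25.9 (fitted 2.59 ± 0.65, adjusted p = 0.0197). Its fitted value was 2.502 without M0 mock replicate 1, 1.94 without replicate 2 and 3.84 without replicate 3, and 2.11 without M2-like mock replicate 1. Of these, only the fit without M0 mock replicate 3 kept the call (adjusted p = 0.00982). Socs3 was lower by 2.33 ± 0.49 (adjusted p = 0.00393), or by 0.55 ± 0.28 (adjusted p = 0.31) without M0 mock replicate 3. Socs5 rose by 0.36 ± 0.10 (adjusted p = 0.0269), with 27.0 to 30.3 against 20.3 to 24.5 CPM, and this call was lost without M0 mock replicate 1 (0.31) or 3 (0.33) and without any of the 3 M2-like mock replicates (0.31 to 0.39).

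M1-like mock and M2-like mock cells, a comparison that does not use the M0 mock libraries, differed in 7 of 8 members, where 60.7% of all genes were called (30.9% higher and 29.8% lower). Socs1, Socs3 and Cish were higher in M1-like mock cells by 3.66 ± 0.29, 4.44 ± 0.48 and 2.66 ± 0.36, Socs2, Socs5 and Socs6 lower by 1.52 ± 0.45, 1.21 ± 0.10 and 1.32 ± 0.09. Socs7 was not called at -0.09 ± 0.09. Socs4 was higher by 0.27 ± 0.11 (adjusted p = 0.0323), and this call was lost, at 0.21 to 0.28, without M1-like mock replicate 1 or 2 or M2-like mock replicate 2 or 3. It was also lost with DESeq2 (adjusted p = 0.0604) and with RLE scaling (adjusted p = 0.06).

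Whether the response to polarization differed between conditions was tested as a difference of differences. The M1-like response of Socs1 was smaller in mock than in untransfected cells by 2.53 ± 0.48 on the log2 scale (adjusted p = 0.0005), where 9.07% of all genes tested were called. The Socs1 means were 44.8 CPM in M1-like and 42.4 CPM in M1-like mock cells, but 0.939 CPM in M0 and 5.11 CPM in M0 mock cells. The difference thus lay in the M0 level. The M1-like response of Socs3 was smaller by 2.20 ± 0.60 (adjusted p = 0.0177), but by 0.41 ± 0.32 (adjusted p = 0.488) without M0 mock replicate 3, and by 2.04 (adjusted p = 0.0587) without M0 replicate 3. Socs7 differed by -0.46 ± 0.12 (adjusted p = 0.0144), and lost the call without M0 mock replicate 2 (-0.37) or M1-like replicate 1 (-0.36). For the M2-like response edgeR called 0 of 8 members (5.66% of all genes), DESeq2 called 2, Socs1 and Socs3, and 4 had an unadjusted p under 0.05. Socs3 there was at -2.26 ± 0.73, and was called without M0 mock replicate 1 or 2 (-2.70 in both), but was -0.48 ± 0.38 (adjusted p = 0.526) without replicate 3.

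Between the untransfected groups of the reprogramming experiment and the 24 h samples, the M1-like response differed in 5 of 8 members (49% of all genes). It was smaller in the reprogramming experiment for Socs1 by 3.24 ± 0.67 (adjusted p = 8.86e-05), for Socs3 by 2.06 ± 0.59 (adjusted p = 0.00328) and for Socs7 by 0.50 ± 0.11 (adjusted p = 0.00024). Socs2 differed by -1.60 ± 0.58 (adjusted p = 0.0198). Its M1-like difference was 0.65 at 24 h and -0.96 in the untransfected groups, and neither value was called. Socs6 differed by 0.61 ± 0.13 (adjusted p = 0.000191), a smaller fall than at 24 h. The Socs2 value was -1.32 without M0 replicate 1, -1.43 without M1-like replicate 2 and -1.24 without M1-like replicate 3, not called in these 3 cases, and -2.32 without M1-like replicate 1. Cish was not called, at -1.54 ± 0.93, with a 95% interval from -3.42 to 0.34. The M2-like response differed in 3 members (17.2% of all genes), Cish by -4.07 ± 1.10 (adjusted p = 0.00806), Socs1 by -2.503 ± 0.70 (adjusted p = 0.0101) and Socs2 by -1.76 ± 0.50 (adjusted p = 0.0109). These calls were lost without M0 replicate 3 for Cish (-3.67, adjusted p = 0.103) and Socs1 (-2.27, adjusted p = 0.0655) and without M0 replicate 1 for Socs2 (-1.50, adjusted p = 0.0751). Culture time, cell preparation, read length and sequencing differ together between the 2 experiments and cannot be told apart.

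**Figure D3:**
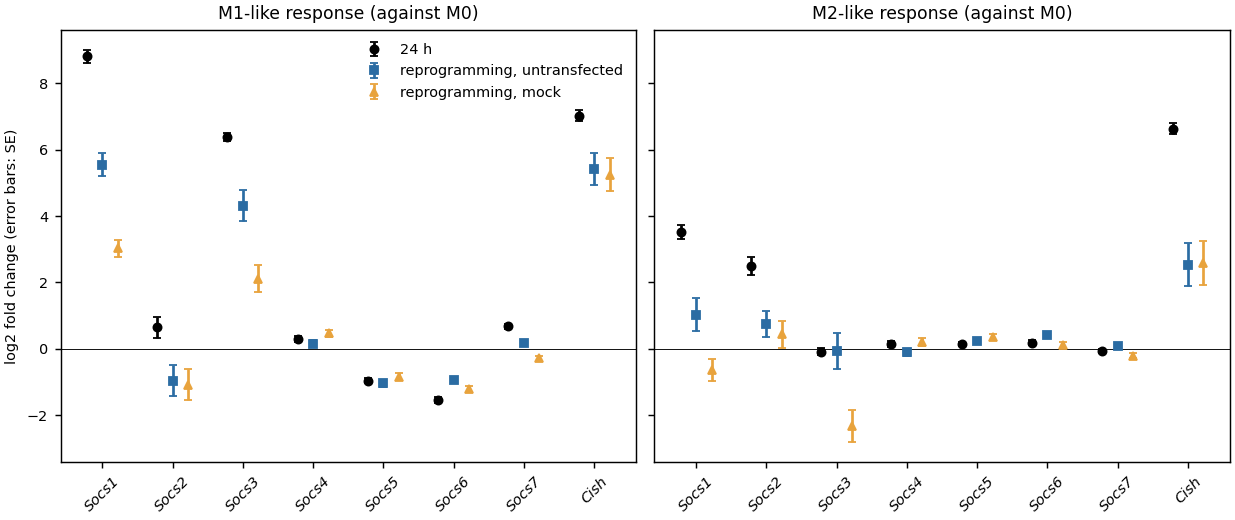
log2 fold changes against the matching M0 group with standard errors, for M1-like (left) and M2-like (right) cells at 24 h, untransfected and mock in the reprogramming experiment. Socs1 goes from 8.81 to 5.55 and 3.03 in M1-like cells, and the Cish response in M2-like cells goes from 6.63 to 2.53 and 2.59. The mock value of Socs1 is taken against M0 mock (mean 5.11 CPM), the untransfected value against M0 (0.939 CPM).

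The negative siRNA pool, a control for siRNA delivery, changed 1 of 8 members against mock in M2-like cells, where 11.7% of all genes were called (6.67% higher and 5.03% lower). Socs6 rose by 0.30 ± 0.09 (106 to 118 against 81.6 to 98.2 CPM, adjusted p = 0.028), and lost the call without M2-like mock replicate 3 (0.22) or negative pool replicate 1 (0.27) or 3 (0.28). Socs1 measured 7.52, 7.14 and 4.46 CPM against 3.0 to 3.59 CPM without overlap, and its difference of 0.92 ± 0.32 missed the threshold (adjusted p = 0.0577), which it passed without negative pool replicate 3 (1.13, adjusted p = 0.0317). Socs1 was also called by DESeq2 (adjusted p = 0.0347) and with only the compared groups in the fit (adjusted p = 0.018). Socs3 was higher in all replicates at 0.64 ± 0.53 (adjusted p = 0.511), and with only the compared groups in the fit it was called at 0.62 ± 0.12 (adjusted p = 0.00712). The other members lay between -0.14 and 0.18 on the log2 scale.

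In Myc knockdown Socs5 and Socs6 fell and Socs7 rose against the negative pool (3 of 8 members, 29.6% of all genes). The Myc siRNA came from Dharmacon, the pools against E2f1, Pparg and Stat6 from siTools Biotech, and the supplier of the negative pool is not stated. For the Myc siRNA, supplier and target therefore cannot be told apart, here or in the combined knockdown. Socs6 fell by 0.78 ± 0.09 (57.2 to 70.8 against 106 to 118 CPM, adjusted p = 1.14e-07) and Socs5 by 0.68 ± 0.10 (14.9 to 18.7 against 25.5 to 28.6 CPM, adjusted p = 2.7e-06), both without overlap. Socs7 rose by 0.25 ± 0.09 (43.7 to 48.7 against 38.4 to 39.5 CPM, adjusted p = 0.0262). The Socs7 call was lost, at 0.21 to 0.26, without Myc knockdown replicate 1 or 3 or any of the 3 negative pool replicates. The mesothelial and fibroblast markers summed to 190 to 274 CPM in Myc knockdown against 234 to 339 CPM in the negative pool, and their part in the falls was not tested. Cish and Socs1 were higher in all replicates, with 0.72 ± 0.39 and 0.50 ± 0.28, and were not called. With only the compared groups in the fit Socs1 was called at 0.51 ± 0.18, and so was Socs3 at 0.48 ± 0.17 (adjusted p = 0.0463 for both), against 0.47 ± 0.47 for Socs3 with all groups.

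Knockdown of Pparg gave the largest differences of Cish and Socs1 among the knockdowns (3 of 8 members called, 5.74% of all genes). Cish measured 1.48, 2.16 and 2.04 CPM, on 21 to 41 reads per library, against 0.534 to 0.662 CPM, a rise of 1.68 ± 0.37 (adjusted p = 0.0041). DESeq2 put Cish at 1.69 and Socs2 at 0.85 in this comparison but gave no adjusted p for either. Socs1 measured 11.4, 12.1 and 13.9 CPM against 4.46 to 7.52 CPM, a rise of 0.97 ± 0.27 (adjusted p = 0.029). The Socs1 call was lost without Pparg knockdown replicate 2 (0.995) or 3 (0.89) or negative pool replicate 3 (0.76). Socs6 fell by 0.50 ± 0.09 (adjusted p = 0.000614), with 74.7 to 85.5 CPM against 106 to 118 CPM. Its level overlapped with M2-like mock cells (81.6 to 98.2 CPM), which lay below the negative pool. Socs2 was at 0.84 ± 0.34, with 1.33, 1.37 and 1.48 CPM above all 3 control values, and was not called (adjusted p = 0.146). Socs3 was not called with all groups (0.34 ± 0.48) or with only the compared groups (0.33 ± 0.15, adjusted p = 0.207).

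Stat6 codes for the factor that IL-4 activates, and its knockdown called 1 of 8 members (1.51% of all genes). Socs6 fell by 0.37 ± 0.09 (adjusted p = 0.0262), a call that was lost, at -0.29 to -0.41, without Stat6 knockdown replicate 2 or 3 or negative pool replicate 1 or 3. At 77.9 to 92.7 CPM it overlapped with M2-like mock cells (81.6 to 98.2 CPM), which lay below the negative pool (106 to 118 CPM). The members that IL-4 raised at 24 h did not pass, with Cish at 0.37 ± 0.42, Socs1 at 0.22 ± 0.29 and Socs2 at 0.10 ± 0.36, whose 95% intervals reached from -0.64 to 1.22. Of these, edgeR called only Cish in M2-like against M0 cells of this experiment, untransfected and mock. Culture after transfection was without IL-4, and Cish rested on 5 to 15 reads per Stat6 knockdown library. DESeq2 gave no adjusted p for Cish and Socs2 in Stat6 knockdown. Knockdown of E2f1 called 0 of 8 members by edgeR and 0 by DESeq2, which gave no adjusted p for Socs2 and Cish (0.91% of all genes by edgeR). Socs6 alone had an unadjusted p under 0.05 there, with -0.28 ± 0.09, and it was called with the replicate block (adjusted p = 0.0462). At 86.4 to 103 CPM it too overlapped with M2-like mock cells. Socs3 was lower in all E2f1 knockdown replicates (5.39 to 7.90 against 10.1 to 10.7 CPM) at -0.65 ± 0.53, and it was called with only the compared groups in the fit (-0.64 ± 0.14, adjusted p = 0.0329). Socs3 in Stat6 knockdown was not called in either fit, at -0.09.

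The combined knockdown lowered Socs5 and Socs6 against the negative pool by 0.78 ± 0.10 and 0.73 ± 0.09 (adjusted p = 3.86e-07 and 3.23e-07) and raised Socs7 by 0.29 ± 0.09 (adjusted p = 0.0123), where 26.5% of all genes were called (12.5% higher and 13.9% lower). Socs5 measured 14.8 to 16.5 against 25.5 to 28.6 CPM and Socs6 60.2 to 73.2 against 106 to 118 CPM, without overlap. The Socs7 call was lost without combined knockdown replicate 1 (0.21, adjusted p = 0.104). Cish was at 0.73 ± 0.40, Socs2 at 0.49 ± 0.35, Socs1 at 0.24 ± 0.28 and Socs3 at 0.19 ± 0.49, all not called, and Socs3 with only the compared groups in the fit was at 0.195 ± 0.14 (adjusted p = 0.302). Against mock instead, 3 of 8 members were called (37.1% of all genes), with Socs1 higher by 1.16 ± 0.31 (adjusted p = 0.00376), Socs5 lower by 0.84 ± 0.10 and Socs6 lower by 0.44 ± 0.09. Socs3 was higher than mock in all replicates (9.41 to 13.4 against 6.34 to 7.29 CPM) at 0.825 ± 0.52 (adjusted p = 0.227), and was called with only the compared groups in the fit (0.82 ± 0.16, adjusted p = 0.00201). Cish against mock was at 0.86 ± 0.41, called only without M2-like mock replicate 1 (1.34, adjusted p = 0.0364). Between the combined and the Myc knockdown 0 of 8 members were called by edgeR and by DESeq2, 0 had an unadjusted p under 0.05, and 0.0494% of all genes were called. The largest of these differences was 0.49 ± 0.34 for Socs2, with a 95% interval from -0.20 to 1.18.

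Other genes of the pathway that were called in the combined knockdown included the receptor genes Il2rg and Il15ra at 0.87 ± 0.12 and 0.76 ± 0.13, Stat2 at 0.61 ± 0.15, Usp18 at 0.88 ± 0.17, Cxcl10 at 1.99 ± 0.47, Osm at 0.54 ± 0.21 and Ube2f at 0.43 ± 0.10. The targeted Stat6 was at -0.89 ± 0.09, Jak1 at -0.18 ± 0.05, Cblb at -0.33 ± 0.09 and the IL-4 marker Mgl2 at -1.60 ± 0.26. In the Myc knockdown, which shares the negative pool, the values were 0.80 ± 0.12 for Il2rg, 0.63 ± 0.15 for Stat2, 0.79 ± 0.17 for Usp18, 1.81 ± 0.47 for Cxcl10, 1.30 ± 0.42 for Lif and -1.86 ± 0.26 for Mgl2, with Il12rb2 at -0.81 ± 0.24, Jak1 at -0.25 ± 0.05, Cblb at -0.39 ± 0.09 and Ube2f at 0.45 ± 0.10. Among other SOCS box genes Asb6 was at 0.33 ± 0.11 in both knockdowns, Spsb4 at 0.32 ± 0.10 in the combined and Tulp4 at -0.34 ± 0.09 in the Myc knockdown. Of the 28 receptors 3 rose and 8 fell in the combined and 3 rose and 13 fell in the Myc knockdown. Of all genes tested, 12.5% were higher and 13.9% lower in the combined, and 13.9% higher and 15.6% lower in the Myc knockdown.

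iM1 macrophages remained apart from M1-like mock macrophages in 7 of 8 members, where 52.9% of all genes were called (27.2% higher and 25.6% lower). Socs3 measured 9.41, 13.1 and 13.4 CPM in iM1 against 116, 184 and 142 CPM in M1-like mock replicates, lower by 3.62 ± 0.44 (adjusted p = 3.73e-08). Socs1 was lower by 2.499 ± 0.25 (5.96 to 8.77 against 26.3 to 55.9 CPM) and Cish by 1.81 ± 0.32 (0.699 to 1.14 against 3.0 to 3.72 CPM). Socs2 was higher by 2.19 ± 0.41, Socs6 by 0.89 ± 0.09, Socs5 by 0.37 ± 0.10 and Socs7 by 0.24 ± 0.09. Thus the levels of Socs5, Socs6 and Cish in iM1 lay between those of the negative pool and of M1-like mock cells, without overlap on either side. For Cish the negative pool measured 0.534 to 0.662 CPM, and the difference of iM1 from that pool was not called. Socs2 and Socs7 in iM1 lay above both groups, also without overlap. The Socs7 call was lost without M1-like mock replicate 3 (0.19) or combined knockdown replicate 1 (0.16), and Socs4 (-0.23 ± 0.11, adjusted p = 0.0696) was called without M1-like mock replicate 3 (-0.31, adjusted p = 0.0308).

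**Figure D4:**
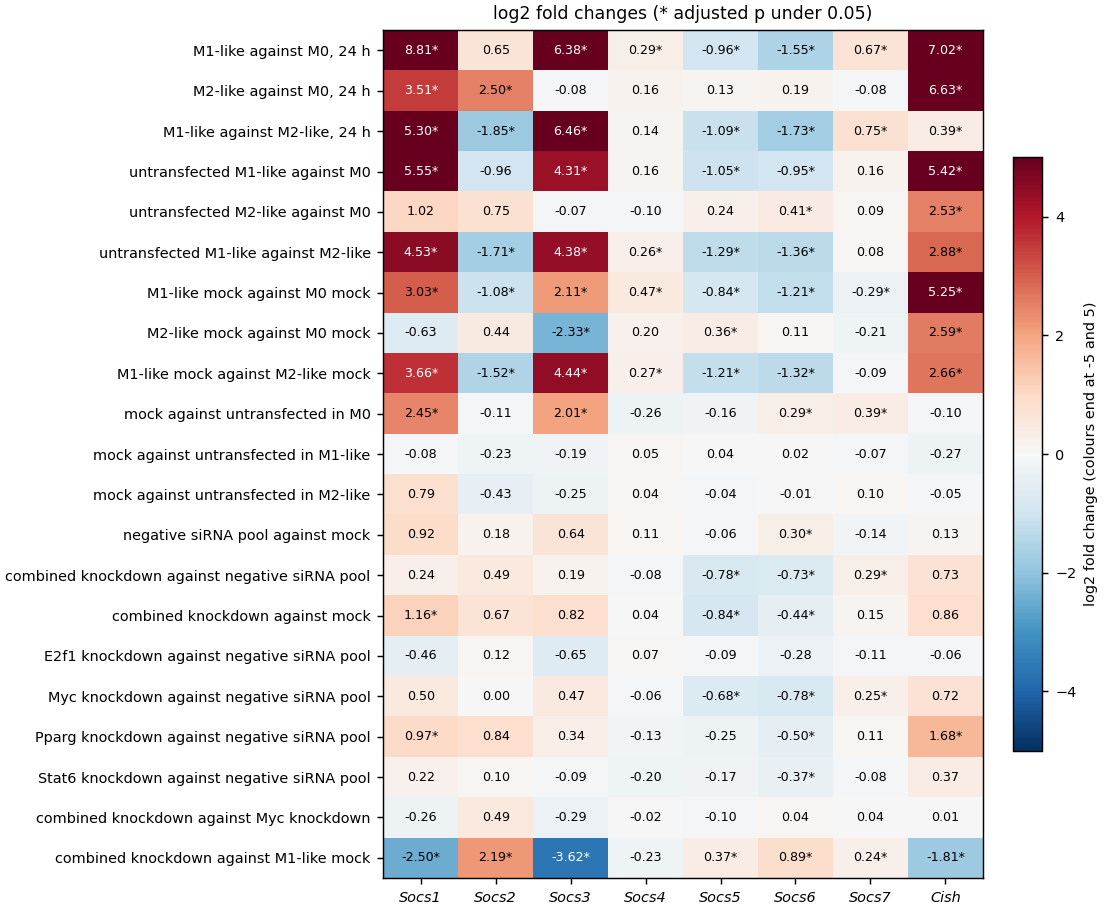
log2 fold changes of the 8 members (columns) in the 21 comparisons of pairs of groups (rows), with an asterisk at an adjusted p under 0.05. Socs1, Socs3 and Cish carry the large positive values in the M1-like rows, while Socs5 and Socs6 are negative there and in the Myc and combined knockdowns.

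In the order of mean CPM over the 12 groups of the reprogramming experiment, the 2 M1-like groups were first for Socs1, Socs3, Socs4 and Cish and last for Socs2, Socs5 and Socs6. For Socs1 and Cish, Pparg knockdown came next, at 12.5 ± 1.32 and 1.89 ± 0.365 CPM, apart from its neighbours on both sides. Socs1 was lowest in M0 (0.939 ± 0.285 CPM), M2-like (1.92 ± 0.350 CPM) and M2-like mock cells (3.34 ± 0.306 CPM), 3 groups that did not overlap with their neighbours, whereas Stat6 knockdown, negative pool, M0 mock and E2f1 knockdown overlapped in sequence. Socs6 was highest in the negative pool (113 ± 6.55 CPM), apart from E2f1 knockdown, M2-like, M2-like mock, Stat6 knockdown and M0 mock, which overlapped in sequence from 92.9 to 85.2 CPM. Socs4 had means from 41.4 to 57.5 CPM and Socs7 from 36.01 to 49.2 CPM, and all neighbours in both orders overlapped. Per kb, the summed level of the 8 genes was 93.1 ± 12.9 CPM in M1-like and 85.1 ± 16.6 CPM in M1-like mock cells against 25.7 ± 0.785 CPM in M0, and it lay between 28.6 and 33.1 CPM in the M2-like groups with and without siRNA. In M0 mock cells it was 37.4 ± 15.1 CPM, with a highest value of 54.7 CPM in which Socs3 held 52.5%.

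**Figure D5:**
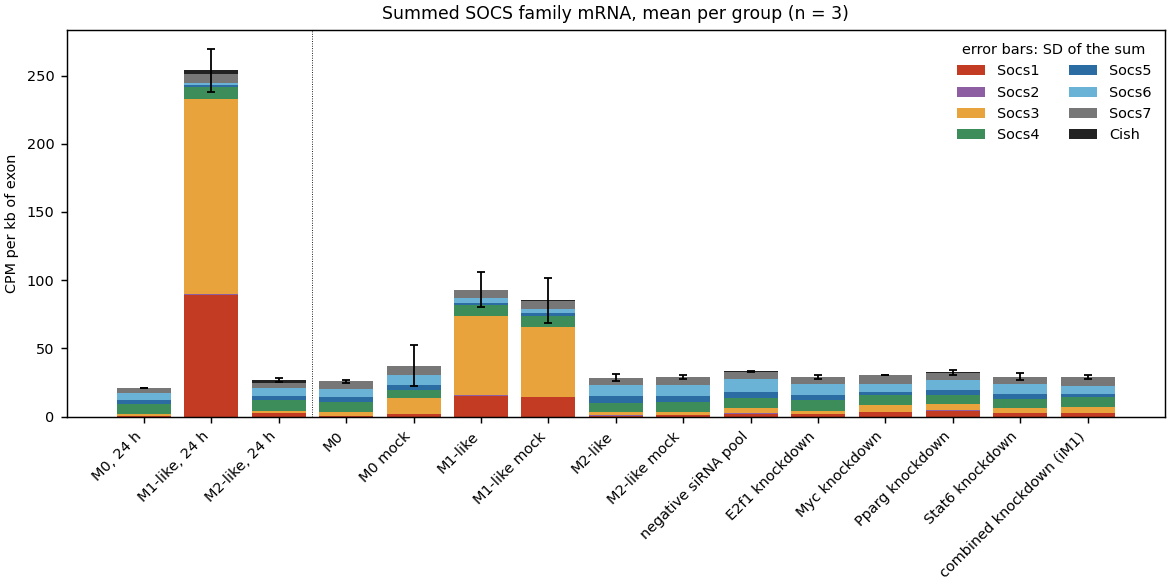
Mean summed level of the 8 members in CPM per kb of exon in the 15 groups (the dotted line parts the 2 experiments), coloured by member, with the SD of the sum over 3 samples as error bar. The 24 h M1-like bar reaches 254 CPM per kb, mostly Socs3 and Socs1, while the groups without LPS and IFN-γ lie between 20.9 and 37.4 CPM per kb.

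Over the 12 group means of that experiment, all from 1 experiment and given as a description, Socs5 and Socs6 ran together (Pearson r = 0.93), as did Socs1 with Cish (0.88) and with Socs3 (0.84). Socs3 ran opposite to Socs6 (-0.91) and Socs5 (-0.88), and Socs7 was within 0.36 of 0 with each of the other members. The genes whose 12 group means were most like those of a member, among 10129 or 10130 genes with a mean log2 CPM of at least 2, were Cox18, Twsg1 and Traf6 for Socs1 (r = 0.98 each) and Atp13a1, Rbck1 and Ccdc134 for Socs3 (0.99 to 0.98). They were Adcy3, Calm2 and Serpinb6a for Socs5, Reps2, Cd63 and Ppia for Socs6 (0.99 to 0.98 for both), and Zc3h15, Nfil3 and Ric1 for Cish (0.95). For Socs2 they were Uaca, E2f8 and Lrrc25 (0.96 to 0.95), for Socs4 Cep95, Exog and Ube2w (0.96 to 0.93), and for Socs7 Mllt6, Rnf157 and Dnajb1 (0.94 to 0.85).

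The 8 genes are protein coding, and Socs3 and Socs7 both lie on chromosome 11 while the others lie on chromosomes of their own, with exon lengths from 2891 bases for Socs3 to 11349 bases for Socs6 (GENCODE M21, GRCm38). Cish spans chr9:107296026-107302784 (+), Socs1 chr16:10782240-10785536 (-), Socs3 chr11:117966079-117970047 (-) and Socs2 chr10:95385362-95417180 (-). The exons of Cish overlap those of the opposite-strand genes Gm17040 by 261 bases and Gm17041 by 479 bases, which held 24 and 0 reads over all libraries, and since no strand setting of the counting is given, reads from these genes and Cish cannot be told apart in the overlaps.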

How the data were processed

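RNA-seq of mouse peritoneal macrophages was used, with 18 single-end libraries of 50 nucleotides and 36 paired-end libraries of 150 nucleotides. The authors deposited raw read counts per Ensembl gene, made, per the labels, with Trimmomatic, TopHat2 and featureCounts on mm10; versions and the settings for strand and multiply mapped reads are not given in the sources used here. Symbols were matched for 37607 of 39179 identifiers (GENCODE M21). Groups were taken from the sample labels. Technical replicates of a mouse differed by about the sampling noise (chi-square per gene 1.07 to 1.10, against 3.63 to 52.4 between mice) and were summed.

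Genes were filtered with filterByExpr (minimum count 10, total 15), scaled by TMM and tested with the edgeR quasi-likelihood test (edgeR 4.0.16, R 4.3.3), two-sided, with all groups of an experiment in 1 fit and Benjamini-Hochberg adjustment over all genes tested; responses were compared between experiments in a joint fit. Standard errors were derived from the F statistic, and CPM and log2 CPM (prior count 2) from TMM library sizes. Intervals of count ratios are exact, at 95%, and cover counting error only. Counting precision is lowest for Cish and Socs2, with 0 to 3 and 2 to 8 reads in some libraries. The fits were tested on simulated data. Alternatives were DESeq2 1.42.0, another scaling (RLE), a stricter filter (10 counts or more in each sample) or none, a replicate block, fits of only the compared groups, technical replicates as separate samples, and leaving out each sample. At 24 h the numbers are mice, so samples of 1 number come from the same animal. Deviations from the group mean correlated between samples of a mouse with a median of 0.25 over 9 pairs (lowest -0.06). Between different mice the median was -0.14. Deviations cancel within a group, so a negative value there follows from the calculation when same-mouse values are positive.

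The 8 members were named throughout. Of the pathway lists, the 2 called genes per role with the largest change and a mean log2 CPM of at least 0 were named, and for likeness the 3 genes with the highest correlation. A gene that the rule names is not reported here. Members and lists were chosen with earlier results of these data known. Python 3.11.15, pandas 2.3.3, NumPy 2.4.6, SciPy 1.17.1 and matplotlib 3.10.9 were used.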

Additional observations from a re-analysis of the deposited data

Results flagged for a closer look

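The response of 8 family members to polarization was compared between conditions, and the differences called by edgeR are listed on the log2 scale. The M1-like response was smaller in mock than in untransfected cells for Socs1 (-2.53) and Socs3 (-2.20). Socs7 differed by -0.46, with no call in untransfected cells and a call at -0.29 in mock cells. Between mock and untransfected M1-like cells 0 of 8 members were called, and between the 2 M0 groups 4. Socs1 means were 44.8 and 42.4 CPM in untransfected and mock M1-like cells, against 0.939 and 5.11 CPM in M0. The Socs3 difference was -0.41 (adjusted p = 0.488) without M0 mock replicate 3, the library at 83.0 CPM of Socs3.

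Between the reprogramming experiment and the 24 h samples, the M1-like response differed for Socs1 (-3.24), Socs2 (-1.60), Socs3 (-2.06), Socs6 (0.61) and Socs7 (-0.50). The M2-like response differed for Socs1 (-2.503), Socs2 (-1.76) and Cish (-4.07). The Cish value rested on 4 reads over the 3 M0 libraries of the reprogramming experiment. Time, cells and sequencing cannot be told apart in these 8 differences.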

How the results depend on the processing

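Counts of called members are given as the main value and then the alternative, and the cause of a move was not tested unless stated. With at least 10 counts in every sample only 5 members could be tested in the reprogramming experiment, so counts went from 5 to 3 for untransfected M1-like against M0, 2 to 1 for M2-like against M0, 7 to 3 for M1-like against M2-like, 8 to 5 for M1-like mock against M0 mock, 7 to 4 for M1-like mock against M2-like mock, 3 to 1 for Pparg knockdown, 7 to 4 for iM1 against M1-like mock, and 5 to 3 and 3 to 0 for the M1-like and M2-like response between experiments. With only the compared groups in the fit they went from 3 to 0 for M2-like mock against M0 mock, 1 to 3 for the negative pool against mock, 0 to 1 for E2f1 knockdown, 3 to 5 for Myc knockdown, and 3 to 1 and 0 to 1 for the M1-like and M2-like response between mock and untransfected. Without a filter they went from 0 to 1 for mock in M2-like cells, 1 to 3 for the negative pool, 0 to 1 for E2f1 knockdown, 3 to 5 for Myc knockdown and 0 to 2 for the M2-like response between mock and untransfected. DESeq2 gave 2 for the negative pool and 2 for that response. Technical replicates as separate samples gave 6 in place of 3 for M2-like against M0 at 24 h.

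With the replicate block, the counts went from 1 to 2 for the negative pool against mock (Socs1 added), 0 to 1 for E2f1 knockdown (Socs6) and 0 to 1 for the M2-like response between mock and untransfected (Socs3). The block also added Socs4 in 2 comparisons, mock against untransfected in M0 and iM1 against M1-like mock, and lost Socs2 in M1-like mock against M0 mock (adjusted p = 0.0509); at 24 h it changed no call but that of Socs2. In the reprogramming experiment samples share only a number: 131 of 198 same-number pairs correlated above 0.1, and 34 of 36 samples were closest to their own number.

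Leaving out single samples gave, for the 24 h comparisons, 7 to 8 for M1-like against M0, 3 to 3 for M2-like against M0 and 7 to 8 for M1-like against M2-like. The untransfected comparisons gave 5 to 6, 2 to 3 and 6 to 7 in the same order, and the mock comparisons 7 to 8, 1 to 2 and 6 to 7. Mock against untransfected gave 2 to 5 in M0 and 0 in M1-like and M2-like cells, and the negative pool 0 to 1. The combined knockdown gave 2 to 3 against the negative pool, 3 to 4 against mock, 0 against Myc knockdown and 6 to 7 against M1-like mock, and the E2f1, Myc, Pparg and Stat6 knockdowns 0, 2 to 3, 2 to 3 and 0 to 1. The responses gave 2 to 3 and 0 to 1 between mock and untransfected, and 4 to 5 and 1 to 3 between experiments. None of the single-member values reversed a call in any alternative run. Of these values, 186 stayed on their side of the threshold with DESeq2, 5 passed it and 3 no longer did, and with RLE size factors 198 stayed and 2 no longer passed. Depth limits Cish in M0 and Socs2 in M1-like cells of the reprogramming experiment, where differences rest on a few reads.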
